A study of Mus musculus with 18 samples.

Results

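Meiotic maturation was described in single oocytes of untreated 12-month mice, as the RNA content of metaphase II (MII) oocytes set against that of germinal vesicle (GV) oocytes. The samples were chosen by their titles, and 1 GV library holding 5009 counts was left out, so that 3 MII and 2 GV oocytes of the 18 deposited libraries remained. All 5 came from C57BL/6JAusb mice aged 12 months that drank water without nicotinamide mononucleotide (NMN), and the treatment label of all 5 is control. The study also holds MII and GV oocytes of young mice of 4 weeks on plain water and of 12-month mice whose water held 2 g/L NMN, from which cells make the coenzyme NAD, over 4 weeks. Those oocytes are used here where maturation in the untreated 12-month mice is set beside theirs. Per the labels, each library came from 1 oocyte, lysed gently so that the nucleus could be spun down and the supernatant taken. A GV oocyte has an intact nucleus and an MII oocyte has none, so the fraction taken may not be the same at both stages, and its part in the results was not tested. The labels name no animals, so oocytes of a stage may share an animal. Each stage is therefore 1 sample, no test was made, and the values describe these oocytes.

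A fully grown GV oocyte has stopped transcription and holds a large store of maternal mRNA. Resumption of meiosis, through nuclear envelope breakdown, the first division and arrest at metaphase II, runs on that store. Cyclin-dependent kinase 1 drives the divisions, and stored mRNAs are put into translation by lengthening of their poly(A) tails. This lengthening is directed by the cytoplasmic polyadenylation element, a uridine-rich stretch near the end of the 3′ UTR. Other mRNAs lose their tails and are degraded by the CCR4-NOT deadenylase, which the adaptor BTG4 brings to them. RNA abundance and poly(A) tail length can both alter the number of reads that a library made from polyadenylated RNA gives. The labels do not say how the RNA was primed, and the 2 were not told apart here.

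The 3 MII libraries held 4384119, 3408203 and 2842369 counts, and the 2 GV libraries 5230045 and 3500491. MII oocytes had counts in 10444, 10782 and 8539 genes, against 13816 and 11736 genes in GV oocytes. In these 5 libraries, 3 counts amounted to 0.574 to 1.055 CPM, where CPM gives the counts of a library on a common total. Of each stage, 1 oocyte is titled batch 2, and the other titles give no batch. Per-oocyte values below are scaled CPM (scaled with TMM factors over the 16 libraries used), in the order MII 1, MII 2 and the batch 2 MII oocyte, then GV 1 and the batch 2 GV oocyte. Across the 12161 genes kept, Spearman's rho lay between 0.775 and 0.829 for pairs of MII oocytes, was 0.777 for the GV pair, and lay between 0.639 and 0.673 for pairs of different stages. Of 14 oocyte markers, 13 had counts in all 5 libraries and 9 had over 100 CPM in all 5, Gdf9, H1foo, Dppa3, Bmp15 and Nobox among them. Zp1, Zp2, Kit and Padi6 were under 100 CPM in at least 1 oocyte, and Figla had no count in MII 2 and the batch 2 MII oocyte. Of 22 markers of cumulus and granulosa cells, 7 had no count in any of the 5, Foxl2, Amh and Fshr among them. The whole marker list summed to between 173.0 and 249.0 CPM in MII and between 364.0 and 400.0 CPM in GV oocytes. Esr2, an estrogen receptor, carried much of the GV sums, at 34.7, 57.4 and 12.4 CPM in MII and at 331.0 and 267.0 CPM in GV oocytes. Without it the sums were 205.0, 192.0 and 160.0 CPM in MII and 69.6 and 97.0 CPM in GV oocytes. Serpine2 was the largest of the rest in every oocyte, at 101.0, 170.0 and 143.0 CPM in MII and at 44.3 and 63.0 CPM in GV oocytes. Gja1, a gap junction protein, was at 44.6 CPM and Kitl at 15.3 CPM in MII 1, and both had no count in the other MII oocytes. Immune markers summed to between 80.2 and 104.0 CPM in MII and between 69.1 and 266.0 CPM in GV oocytes, with Ptprc at 0 throughout. Endothelial markers summed to between 30.2 and 40.6 CPM against 24.8 and 28.1 CPM, theca and stroma markers to between 1.82 and 21.9 CPM against 0.246 and 3.34 CPM, and the 6 erythroid markers to 0 at both stages. Their part in the results was not tested.

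Genes far lower in MII than in GV oocytes outnumbered those far higher. A gene counted as measured if its mean reached 10 CPM in either stage, which 7108 of the 12161 genes did. It counted as higher or lower in MII oocytes if the log2 ratio of means (1 CPM added to each) was at least 2 in size, a 4-fold ratio, and the values of the stages did not overlap. By this rule 169 genes were higher, 2.38% of those measured, and 1548 were lower, 21.8%. With the 1 CPM added, 1 gene was at 16-fold or more higher, the pseudogene 5830417I10Rik, named after its value was seen, and 450 were at 16-fold or more lower; 164 of the lower genes had no count in any MII oocyte. The median log2 ratio was -0.29 over the 12161 genes and -0.15 over those measured. Oocytes of the stages did not overlap in 47.4% of measured genes, whatever the size of the ratio. The number of higher genes changed when a single library was left out. It was 643, with 1667 lower, without GV 1, and 314, with 1700 lower, without the batch 2 GV oocyte. Without the batch 2 MII oocyte it was 263, with 1639 lower. Within titles that give no batch 393 genes were higher and 1729 lower, and between the batch 2 oocytes 742 and 2115. With fewer oocytes the stages overlap less readily, so these counts can rise by the rule alone. How much of the rise came from the rule was not tested.

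**Figure D1:**
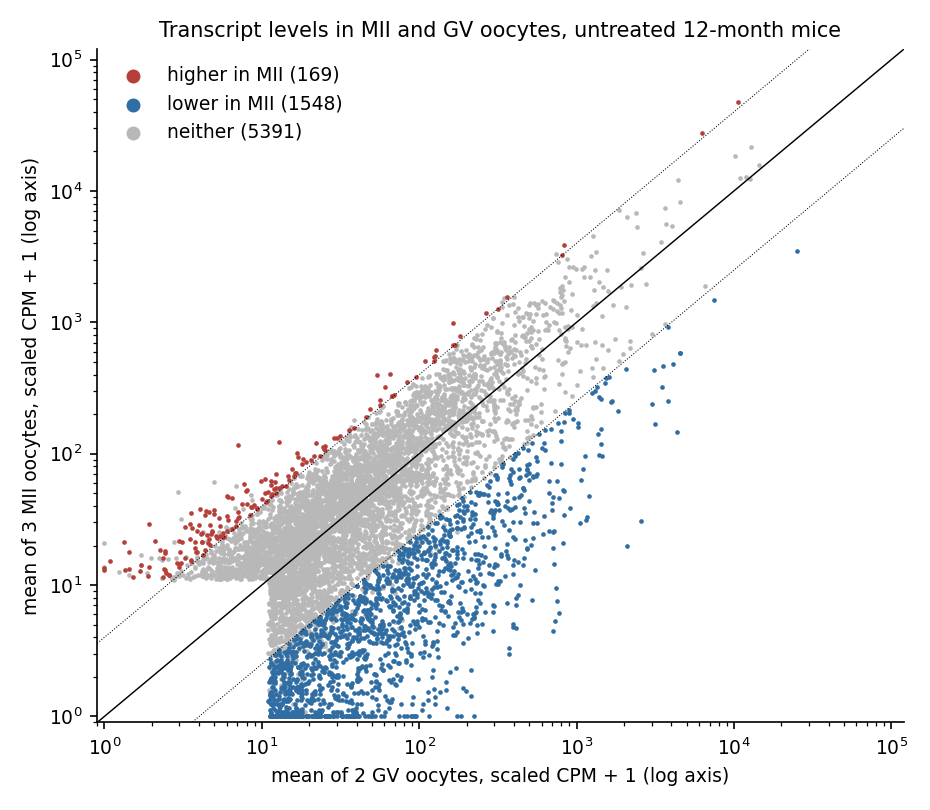
Mean level of each of the 7108 measured genes in the 3 MII oocytes (vertical axis) against the 2 GV oocytes (horizontal axis), in scaled CPM with 1 added, both axes on a log scale; dotted lines mark a 4-fold ratio. The 1548 genes counted as lower in MII oocytes lie below the lower line and spread down to 0 CPM, while the 169 counted as higher stay close to the upper line.

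The mRNAs of ribosomal proteins had the lowest median ratio of the lists examined. Of the 82 cytosolic ribosomal proteins, which build the ribosome, 63 were lower in MII oocytes and none was higher, with a median log2 ratio of -3.33. The lower genes were 78.8% of those measured, where 21.8% of all measured genes were lower. Together the 82 summed to 3041.4, 2013.3 and 6414.1 CPM in the MII oocytes, against 13020.5 and 18904.5 CPM in the GV oocytes. Rpl7a (chr2:26910764-26913318, GRCm38), a protein of the large subunit, was at 3.0, 0 and 2.91 CPM in MII and at 369.0 and 375.0 CPM in GV oocytes, a ratio of 189.0-fold lower. Pooled over oocytes, Rpl7a had 25 counts in MII, between 1.52 and 3.47 CPM by an exact 95% Poisson interval, and 3624 counts in GV, between 402.0 and 429.0 CPM; these intervals are in unscaled CPM and cover counting error only. Rpl10a had no count in any MII oocyte, against 33.4 and 59.3 CPM in GV oocytes, which makes it at least 192.0-fold lower. Rps27a, a fusion of ubiquitin and a small subunit protein, was at 17.3, 5.01 and 0 CPM in MII and at 279.0 and 566.0 CPM in GV oocytes. No MII value of these 3 genes came near the GV values. Many ribosomal protein genes have processed pseudogenes of nearly the same sequence, and how the authors' counting split such reads is not stated.

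Translation factors were split. Of 49, 16 were lower and 1 was higher, with a median log2 ratio of -0.98. Eef1a1, the elongation factor that carries aminoacyl-tRNA to the ribosome, was at 6.52, 1.75 and 9.46 CPM in MII against 141.0 and 455.0 CPM in GV oocytes. Subunits of initiation factor 3 and elongation factor 1 were also among the lower genes, Eif3g with a log2 ratio of -5.20, Eef1d with -5.04 and Eif3f, without a count in MII oocytes, at least 130.0-fold lower. Eif5, the factor that triggers GTP hydrolysis at the start codon, was the exception, with means of 3885.7 CPM in MII and 835.0 CPM in GV oocytes and a log2 ratio of 2.22. The mitochondrial ribosome, which translates the mRNAs of the mitochondrial genome, resembled the cytosolic one. Of its 78 proteins 44 were lower and none higher, with a median of -2.52, and 60.3% of those measured were lower. Mrpl55 (chr11:59202486-59206134) had the largest ratio of any named gene. It had no count in the MII oocytes, against 243.0 and 204.0 CPM in GV oocytes, and was at least 925.0-fold lower.

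Nuclear and mitochondrial genes of the respiratory chain went opposite ways. Complex I, which takes electrons from NADH, had 26 of its 36 nuclear-encoded subunits lower and 1 higher, with a median of -3.17. Complexes II to V had 20 of 40 lower and none higher, with a median of -2.34. Of measured members, 74.3% of complex I and 52.6% of complexes II to V were lower, where 21.8% of all measured genes were. In complex I 2.86% of measured members were higher, against 2.38% of all measured genes. Ndufv1, the subunit that binds NADH, had no count in MII oocytes, against 151.0 and 32.2 CPM in GV oocytes. Ndufb7 was at 0, 1.25 and 9.09 CPM in MII and at 254.0 and 331.0 CPM in GV oocytes. Cox4i1, a subunit of cytochrome c oxidase, was at 28.7, 12.0 and 13.5 CPM in MII and at 618.0 and 346.0 CPM in GV oocytes, a ratio of 26.7-fold lower. All MII values of these subunits were below all GV values. Ndufa10 was the complex I subunit counted as higher, with means of 545.0 CPM in MII and 124.0 CPM in GV oocytes.

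The 13 mRNAs encoded by the mitochondrial genome were at a median log2 ratio of 1.56, with 4 counted as higher and none as lower. Of the measured members 33.3% were higher, against 2.38% of all measured genes. The 13 summed to 93825.1, 84512.8 and 89754.9 CPM in MII oocytes, against 24381.2 and 21509.5 CPM in GV oocytes. mt-Cytb, cytochrome b of complex III, was at 62147.8, 52543.0 and 26880.0 CPM in MII and at 13521.7 and 7823.6 CPM in GV oocytes, 4.42-fold higher. mt-Atp6 was at 21290.4, 22201.4 and 38975.6 CPM against 6100.0 and 6501.5 CPM, and mt-Nd3 at 181.0, 50.9 and 132.0 CPM against 4.57 and 19.2 CPM. The other gene counted as higher was mt-Atp8, whose frame overlaps that of mt-Atp6, so their reads cannot be fully separated. mt-Co3, a subunit of cytochrome c oxidase, was the 1 member with a ratio below 0, at -0.36. The mitochondrial genome took 12.58, 10.16 and 9.09% of all counts in the MII oocytes, against 2.76 and 2.80% in the GV oocytes. With library totals as the scale 191 genes were higher and 1578 lower, and with these genes left out of the totals 266 were higher and 1516 lower, 1442 of them among the 1548. Nuclear copies of mitochondrial sequence exist, and reads of the 2 may have been divided among them.

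**Figure D2:**
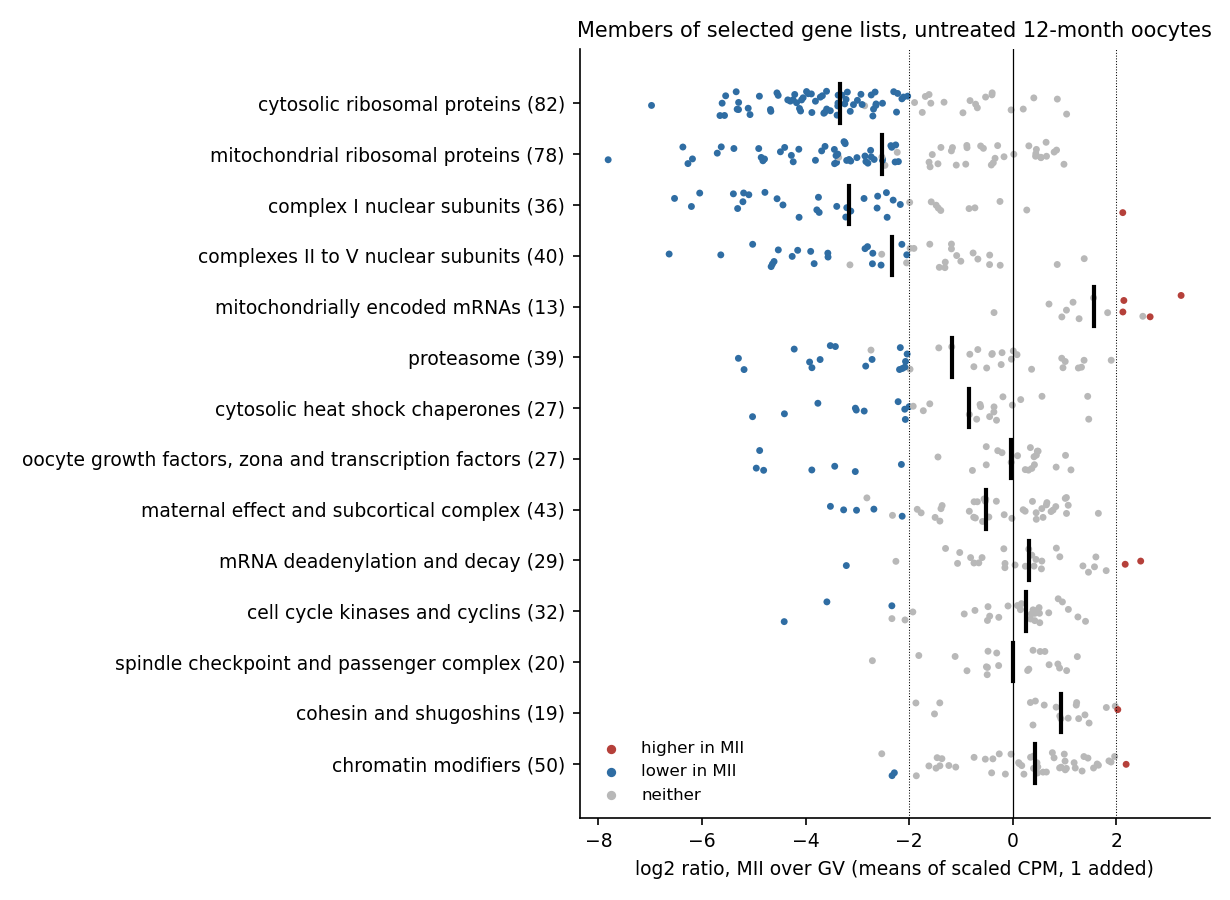
Log2 ratio of MII over GV for the members of 14 gene lists, with the number of members kept in brackets; each point is a gene, black bars are list medians and dotted lines mark a 4-fold ratio. Ribosomal proteins and nuclear respiratory subunits lie mostly left of -2, the mitochondrially encoded mRNAs lie right of 0 apart from 1, and the spindle checkpoint list has no member past either line without overlap.

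Housekeeping lists outside the ribosome and the mitochondria had smaller shifts. The proteasome, which degrades ubiquitinated proteins, had 16 of 39 subunits lower and none higher, with a median of -1.18. Psmb1 was at 37.2, 17.8 and 36.0 CPM in MII oocytes and at 1147.3 and 1133.7 CPM in GV oocytes, 37.6-fold lower. In the core spliceosome, 10 of 41 genes were lower at a median of -0.52, led by Snrpd2, a protein of the Sm ring, at 6.87, 7.77 and 0.728 CPM against 381.0 and 1161.7 CPM. Cytosolic chaperones had 10 of 27 lower at a median of -0.84, which was -0.35 in titles without a batch and -2.18 in batch 2. The summed level of the chaperone list was not lower in MII oocytes. It was 8441.2, 10642.1 and 25872.0 CPM in MII against 6040.1 and 10474.4 CPM in GV oocytes. Hspa8, the constitutive HSP70, was at 12.2, 5.51 and 16.0 CPM in MII and at 133.0 and 660.0 CPM in GV oocytes. Of 23 antioxidant enzymes, 7 were lower. They included Sod1, the cytosolic superoxide dismutase, at 53.2, 28.3 and 54.2 CPM against 1122.0 and 419.0 CPM, and Gpx4, which reduces lipid peroxides, at 2.12, 2.51 and 0 CPM against 120.0 and 24.1 CPM. The citric acid cycle had 5 of 16 genes lower, Mdh2 and Idh3g among them, and glycolysis 4 of 22, among them Aldoa, with medians of -1.86 and -1.58. None of these 6 lists had a gene counted as higher. Of their measured members, 42.1% of the proteasome, 41.7% of the chaperones, 41.2% of the antioxidant enzymes, 33.3% of the citric acid cycle, 27.8% of the spliceosome and 26.7% of glycolysis were lower, where 21.8% of all measured genes were.

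Oocyte-specific transcripts did not go one way. The list of oocyte growth factors, zona proteins and transcription factors had a median of -0.03, with 7 of 27 lower and none higher. The lower genes were 28.0% of those measured, where 21.8% of all measured genes were lower. All 3 zona pellucida genes, which make the coat around the egg, were lower. Zp2 (chr7:120126772-120145291) was at 53.8, 8.52 and 10.2 CPM in MII and at 229.0 and 1179.0 CPM in GV oocytes, 29.2-fold lower. Zp3 was at 364.0, 450.0 and 143.0 CPM against 5504.7 and 1429.3 CPM, 10.9-fold lower, and Zp1 at 5.46, 40.3 and 1.82 CPM against 209.0 and 285.0 CPM. Every MII oocyte was below every GV oocyte for each of them. Figla, the transcription factor that activates the zona genes, had 5.64 CPM in MII 1 and no count in the other MII oocytes, against 75.4 and 101.0 CPM in GV oocytes. Gtsf1, a partner of the piRNA pathway, was 29.8-fold lower, at 182.0, 97.5 and 158.0 CPM against 2149.2 and 6525.8 CPM. The growth factors secreted by the oocyte stood apart from the coat proteins. Gdf9 was at 1335.1, 6828.5 and 1946.8 CPM in MII and at 3552.2 and 1771.6 CPM in GV oocytes, and Bmp15 at 390.0, 410.0 and 471.0 CPM against 199.0 and 419.0 CPM. The stages overlapped for both genes.

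Of 43 maternal effect genes, which act in the egg and early embryo, 5 were lower and none higher, with a median of -0.52. That is 12.5% of those measured, under the 21.8% of all measured genes. Members of the subcortical maternal complex differed among themselves. Padi6 was at 104.0, 95 and 52.7 CPM in MII and at 575.0 and 797.0 CPM in GV oocytes, 8.17-fold lower. Khdc3 and Tle6 were lower as well, with log2 ratios of -3.27 and -2.68. Nlrp5, another member, was at 280.0, 156.0 and 112.0 CPM against 147.0 and 890.0 CPM, with overlap. Dppa3, which protects the maternal genome from loss of methylation, was among the most abundant transcripts per length at both stages, with a mean of 19734.8 TPM, the authors' value scaled by transcript length, in MII and 17769.8 TPM in GV oocytes. Abundance per length was led in MII oocytes by mt-Atp6 with 66678.0 TPM and mt-Cytb with 60382.3 TPM. Ubb, a polyubiquitin gene, was at 2301.8, 2137.0 and 3560.6 TPM in MII and at 20450.9 and 17508.9 TPM in GV oocytes, where it was the most abundant gene that is not a predicted one.

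**Figure D3:**
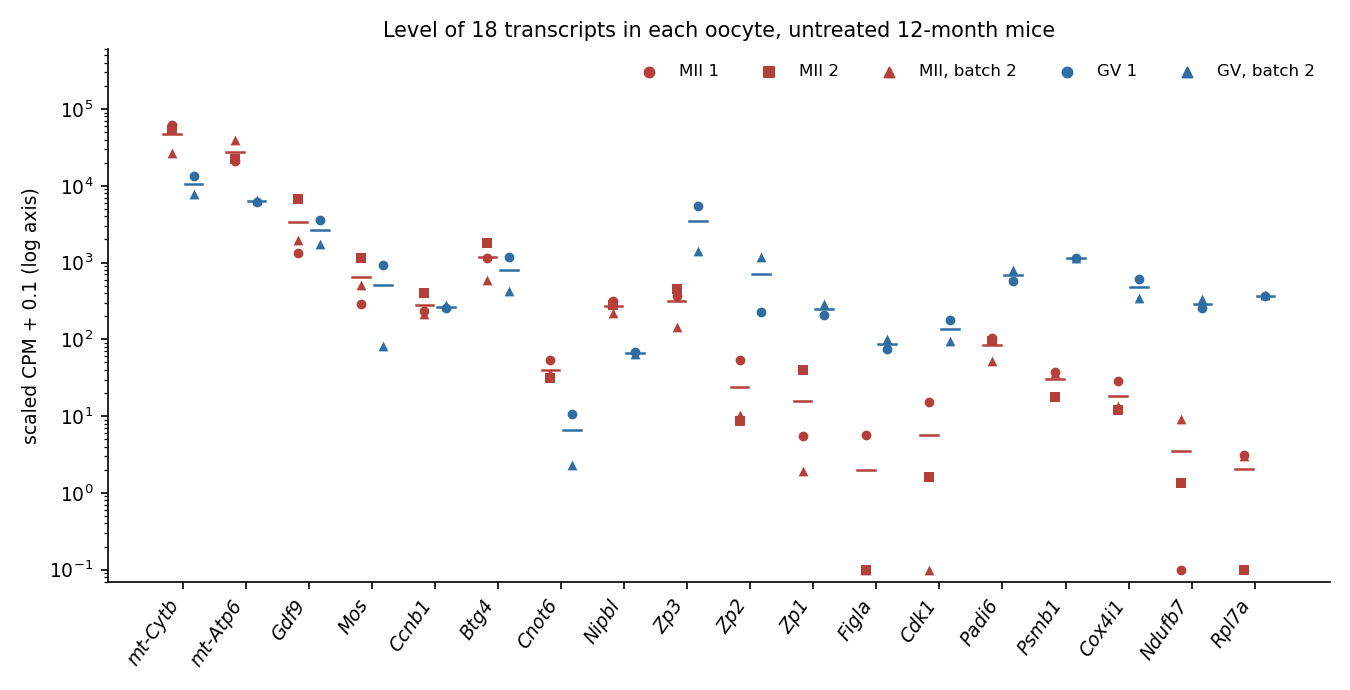
Level of 18 transcripts in each oocyte, in scaled CPM with 0.1 added on a log axis; red points are the 3 MII oocytes, blue points the 2 GV oocytes, and bars their means. MII and GV points mix for Gdf9, Mos, Ccnb1 and Btg4, and lie apart for the other genes, with MII above GV for mt-Cytb, mt-Atp6, Cnot6 and Nipbl.

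Genes that store, polyadenylate and degrade mRNA held members that were lower and members that were higher. Among 30 genes of mRNA storage and cytoplasmic polyadenylation, 5 were lower and none higher, with a median of -0.49; that is 18.5% of those measured, near the 21.8% of all measured genes. Ybx2 (MSY2), an RNA-binding protein that stabilises stored mRNA, was at 0, 1.25 and 5.09 CPM in MII and at 49.9 and 34.9 CPM in GV oocytes, 20.0-fold lower. Zar1l was 27.0-fold lower. Cpeb1, which binds the cytoplasmic polyadenylation element, was at 69.6, 46.3 and 64.4 CPM against 102.0 and 142.0 CPM; its stages did not overlap but its ratio was 2.02-fold. Dazl, which promotes translation during maturation, was at 1382.5, 2489.3 and 406.0 CPM against 473.0 and 196.0 CPM, with a log2 ratio of 2.09 and overlap. Pabpn1l ranged from 212.0 to 916.0 CPM in MII oocytes, and was at 1511.1 and 105.0 CPM in GV oocytes.

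In the list of mRNA deadenylation and decay, 2 of 29 genes were higher and 1 lower, with a median of 0.31. These were 8.0 and 4.0% of those measured, against 2.38 and 21.8% of all measured genes. Cnot6, a catalytic subunit of the CCR4-NOT deadenylase, was at 53.9, 31.1 and 36.0 CPM in MII and at 10.7 and 2.21 CPM in GV oocytes, 6.24-fold higher. Tut7, which adds uridines to mRNAs with short tails, was at 74.4, 47.1 and 36.0 CPM against 18.1 and 3.69 CPM. Cnot10 was the lower one. Another catalytic subunit, Cnot7, had a log2 ratio of -0.15. Btg4 was at 1156.0, 1797.3 and 597.0 CPM in MII and at 1178.2 and 425.0 CPM in GV oocytes. Cnot7 and Btg4 both overlapped between stages. The catalytic paralogues Cnot6l and Cnot8 had log2 ratios of 1.60 and 0.84 and were not counted.

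Cell cycle regulators had a median of 0.25, with 3 of 32 kinases and cyclins lower and none higher. Of those measured, 12.0% were lower, under the 21.8% of all measured genes. The median was 0.02 in titles without a batch and -0.11 in batch 2. Cdk1 itself (chr10:69335146-69352938) was at 15.0, 1.5 and 0 CPM in MII and at 180.0 and 94.7 CPM in GV oocytes, 25.0-fold lower. Pooled over oocytes it had 91 counts in MII, between 6.89 and 10.5 CPM, and 1409 in GV, between 153.0 and 170.0 CPM. Its cyclin partners overlapped between stages. Ccnb1, cyclin B1, was at 234.0, 400.0 and 215.0 CPM in MII and at 256.0 and 276.0 CPM in GV oocytes. Ccnb2 had a log2 ratio of 0.96. Mos, the kinase upstream of the MAP kinase pathway that holds metaphase II arrest, had one of 0.36, with overlap. Arpp19, an inhibitor of the phosphatase PP2A, was 12.3-fold lower, at 58.2, 45.6 and 8.73 CPM against 270.0 and 654.0 CPM, and Ppp2ca, the catalytic subunit of that phosphatase, was 5.45-fold lower. Wee2, the oocyte kinase that inhibits CDK1, was at 185.0, 168.0 and 84.4 CPM against 88.2 and 132.0 CPM.

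The cAMP pathway, which keeps GV oocytes arrested, had 2 of 11 genes higher and none lower, with a median of 0.57. Of the 9 measured, 22.2% were higher, where 2.38% of all measured genes were higher and 21.8% lower. Prkacb, a catalytic subunit of protein kinase A, was at 5.82, 13.0 and 31.6 CPM in MII and at 0.878 and 0 CPM in GV oocytes. Adcy9, an adenylyl cyclase, was at 29.6, 19.8 and 33.1 CPM against 4.92 and 2.46 CPM, 7.46-fold higher. Gpr3, the receptor that maintains arrest, and Pde3a, the phosphodiesterase that ends it, had log2 ratios of 0.26 and 0.79 with overlap. Adcy3, the cyclase best known in rodent oocytes, had no count in any of the 5.

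Few genes of chromosome segregation were counted. None of the 20 genes of the spindle checkpoint and chromosomal passenger complex, 18 of them measured, was counted, where the background is 2.38% higher and 21.8% lower, and their median was 0.01. Bub1b, a checkpoint kinase-like protein, was at 321.0, 468.0 and 643.0 CPM in MII and at 338.0 and 283.0 CPM in GV oocytes, and Mad2l1 at 252.0, 582.0 and 160.0 CPM against 382.0 and 161.0 CPM. Cohesins and shugoshins, which hold sister chromatids together, had the highest median after the mitochondrially encoded mRNAs among lists with at least 8 measured genes, at 0.93, with 1 of 19 higher and none lower. Nipbl, which loads cohesin, was at 320.0, 277.0 and 223.0 CPM in MII and at 68.3 and 64.4 CPM in GV oocytes, 4.12-fold higher. As the 1 gene counted as higher it made 6.25% of the measured members, against 2.38% of all measured genes. Smc1b, a meiotic cohesin, had a log2 ratio of 1.98 and Smc3 one of 1.81, just under the threshold. The meiotic kleisin Rec8 had no count in any of the 5. In the anaphase-promoting complex, 3 of 22 genes were lower, Anapc15, Cdc16 and Anapc2. Pttg1, the securin that the complex degrades, was at 2872.8, 5219.8 and 7968.4 CPM in MII and at 2357.3 and 2471.8 CPM in GV oocytes, apart from each other but 2.22-fold. Of 34 kinetochore genes, 3 were lower and 1, Cenpc1, was higher. Spc24 was 9.34-fold lower, at 25.4, 10.3 and 58.2 CPM against 272.0 and 312.0 CPM. Among 42 genes of the spindle, kinesins and tubulins, 7 were lower at a median of 0.04. Tuba4a, Tubb2b, Tubb4b and Tubb6 were 4 of them, and Tubb4b was at 25.4, 25.6 and 45.8 CPM in MII against 827.0 and 419.0 CPM in GV oocytes. Tubulin genes are near-identical in parts, so their shares of reads are uncertain. Tpx2, a spindle assembly factor, had a log2 ratio of 0.12. Of measured members, 14.3% of the anaphase-promoting complex list, 10.7% of the kinetochore list and 18.4% of the spindle list were lower. All 3 shares were under the 21.8% of all measured genes.

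In the remaining lists the share of measured genes that was lower did not exceed the 21.8% of all measured genes, and lay between 5.56% for chromatin modifiers and 21.7% for autophagy with mitochondrial dynamics. Chromatin modifiers had a median of 0.43, with Kat6b, a histone acetyltransferase, higher at 213.0, 143.0 and 33.5 CPM in MII against 30.4 and 25.1 CPM in GV oocytes, and Kdm2b and Kat8 lower, of 50. DNA repair had 7 of 46 lower at a median of 0.20; Xrcc6 (Ku70), of end joining, was 23.5-fold lower, and Xrcc3, of homologous recombination, had no count in MII oocytes and was at least 68.3-fold lower. Nuclear pore and lamina genes had 2 of 30 lower, with Nup133 at 0 in all MII oocytes against 41.1 and 34.9 CPM and Lmna 12.4-fold lower. Of 23 fertilization genes, 3 were lower and 1 higher. Izumo1r (Juno), the egg receptor for sperm IZUMO1, was at 15.0, 3.26 and 24.4 CPM in MII and at 233.0 and 60.0 CPM in GV oocytes, 10.3-fold lower. Atp2b1, a calcium pump of the plasma membrane, was 4.42-fold higher, at 664.0, 822.0 and 181.0 CPM against 147.0 and 105.0 CPM. Actin genes had 3 of 34 lower, among them Actg1 at 22.2, 11.8 and 19.3 CPM against 40.6 and 129.0 CPM, while Actb, its near-identical paralogue, was at 40.9, 15.3 and 18.6 CPM against 60.4 and 38.9 CPM. The unfolded protein response had 3 of 26 lower, led by Ddit3 (CHOP), and autophagy with mitochondrial dynamics 5 of 31, led by Atg4b, with medians of 0.21 and -0.53. Among 15 genes of NAD synthesis and the sirtuins, Sirt6, a nuclear deacylase, was the 1 counted, at 3.88, 2.76 and 7.28 CPM in MII and at 71.0 and 12.5 CPM in GV oocytes. That list's median was -1.19, and it was 0.40 without GV 1.

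The genes with the largest ratios above 0 had low levels in GV oocytes. Man2a1, an enzyme of N-glycan processing, was at 14.1, 14.0 and 9.46 CPM in MII oocytes and had no count in either GV oocyte, at least 40.8-fold higher. Lamc1, a laminin chain, was at 19.6, 8.52 and 14.6 CPM against 0.176 and 0 CPM. Its pooled counts were 185 in MII, between 15.0 and 20.1 CPM, and 1 in GV, between 0.0029 and 0.638 CPM. Other genes of this group varied more between MII oocytes: Ptpn13, a tyrosine phosphatase, was at 1.23, 18.3 and 41.1 CPM, and Usp13, a deubiquitinase, at 1.06, 3.51 and 31.6 CPM. Cdc42ep3, an effector of the GTPase CDC42, was at 23.6, 56.1 and 23.6 CPM in MII against 5.09 and 0 CPM in GV oocytes, 13.5-fold higher. Cln3, Ppfibp1, Tub, Zfp759 and the antisense transcript Pard3bos2 completed the 12, with mt-Nd3 and Prkacb given above. At the other end, Bola1 and Nubp2, both of iron-sulphur protein assembly, and Sssca1 had no count in MII oocytes. They were at least 763.0-fold, 715.0-fold and 478.0-fold lower. Psmc3ip, a cofactor of meiotic recombination, had 1.25 CPM in MII 2 and no count in the other MII oocytes, against 173.0 and 249.0 CPM in GV oocytes. Cpsf4l, Rnaset2a, Pfdn6 and Szrd1 were each over 100-fold lower by the ratio of means; Rnaset2a has a near-identical copy, Rnaset2b, with which it may share reads.

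Genes counted as lower had short transcripts. A protein-coding transcript of GENCODE vM21 was matched to 6592 of the measured genes. Coding length had a median of 1801 bases in the 154 higher genes, 906 bases in the 1407 lower genes and 1278 bases in all measured genes. The 3′ UTR had a median of 1592 bases in the higher, 406 bases in the lower and 916 bases in all measured genes. Split into 5 groups of near-equal size by coding length, the share counted as lower was 35.5, 26.8, 20.2, 15.0 and 9.26%, in order of rising length. The share counted as higher was 1.36, 1.37, 2.05, 2.81 and 4.10% in the same order. With the ribosomal protein and nuclear respiratory chain lists removed, a comparison chosen after the data were seen, 30.4% were lower in the group of shortest and 9.26% in that of longest coding length. Base composition moved with the outcome as well. Over 5 groups by 3′ UTR G+C content the share lower was 11.5, 12.2, 19.1, 26.3 and 38.2%, in order of rising G+C. Length and composition may bear on how well a transcript is captured and sequenced, and their part in the ratios was not tested.

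**Figure D4:**
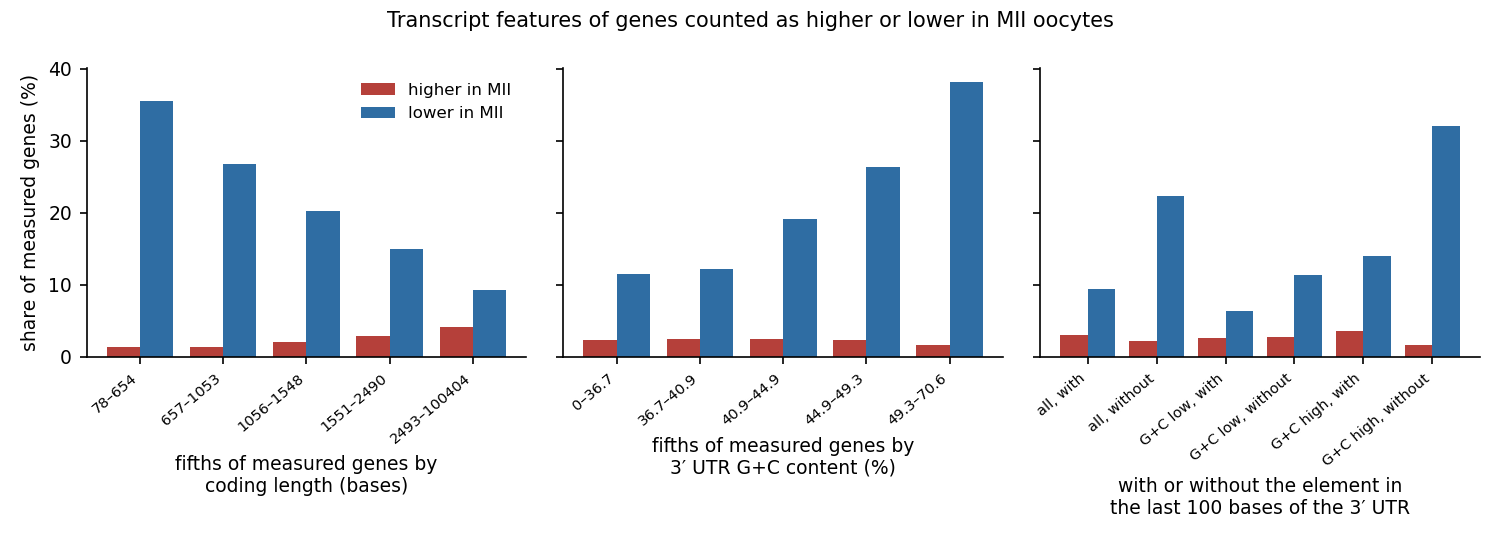
Share of measured genes counted as higher (red) or lower (blue) in MII oocytes, in percent, by 5 groups of coding length, by 5 groups of 3′ UTR G+C content, and by presence of the cytoplasmic polyadenylation element in all transcripts and in those with G+C at or under, or over, the median. The share lower is 35.5% in the shortest group and 9.26% in the longest, and it is smaller with the element than without it in both G+C classes.

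The end of the 3′ UTR was then searched for the cytoplasmic polyadenylation element, written as TTTTAT or TTTTAAT, in the last 100 bases, and for the polyadenylation signal, AATAAA or ATTAAA, in the last 40. Only the transcript strand was searched, in the 6154 transcripts whose 3′ UTR has at least 100 bases. TTTTAAT and AATAAA can overlap by 3 letters, which was the sole ground for a match in 71 transcripts. The element was present in 27.4% of the 146 higher, 10.3% of the 1200 lower and 21.5% of all these transcripts. The signal was present in 82.2, 69.9 and 78.3% in the same order. Of 1322 transcripts with the element 9.38% were lower, against 22.3% of 4832 without it, and 3.03% were higher, against 2.19%. Where 3′ UTR G+C content was over its median of 42.8%, 14.0% with the element and 32.1% without it were lower. Where it was at or under the median, the shares were 6.31 and 11.4%. The shares higher, with and without the element, were 3.58 and 1.69% over the median. At or under the median they were 2.65 and 2.75%, so the element went with no larger share higher there. A match describes the letters and does not show that the element acts.

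Windows of 30 bases are shown so that both arrangements can be seen, in lower case with the element and the signal in capitals, read 5′ to 3′ on the transcript. The first set holds the higher genes of largest ratio in which both motifs lie within 30 bases.
Lamc1: aacagtaTTTTATttatAATAAAatctgaa
Prkacb: TTTTAATtcatcaataaccgcaaaATTAAA
Tmem109: ctaTTTTATtatcttcttctgAATAAAatg
Shisal1: TTTTATaacgacgtccttagttttAATAAA
Fam117a: cttgaTTTTAATagaccaAATAAAtatgta
On GRCm38 these lie at chr1:153218938-153218967, chr3:146729593-146729622, chr19:10870673-10870702 and chr15:84379219-84379248 on the minus strand and chr11:95381835-95381864 on the plus strand. Their log2 ratios were 3.81, 3.63, 2.74, 2.73 and 2.29.

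The next set holds the lower genes of largest ratio with the signal and without the element, in which the capitals mark the signal alone.
Mrpl55: ctgagagctgggATTAAAggtatctgccat
Bola1: aagggccatgatAATAAAagagaagctggt
Rnaset2b: ccctatctacctATTAAAtcttatactata
Cox7c: gaaaaaattgtaAATAAActaatgacataa
Ccdc124: gagtaccctcccAATAAAggctgtggcgag
They lie at chr11:59206104-59206133 and chr17:7011261-7011290 on the plus strand (Mrpl55 and Rnaset2b) and at chr3:96196596-96196625, chr13:86044819-86044848 and chr8:70868232-70868261 on the minus strand. The log2 ratios of the 5 genes were -7.81, -7.53, -6.71, -6.63 and -6.57. Cox7c, a subunit of cytochrome c oxidase, had 17.1, 1.5 and 1.09 CPM in MII and 204.0 and 1295.8 CPM in GV oocytes.

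The arrangement did not mark direction in every gene. Pitpna and Sec14l1, with log2 ratios of -4.01 and -3.96, hold the element close to the signal, and so do Gdf9 and Cnot7, whose stages overlapped.
Pitpna: tctgacaTTTTATgtaAATAAAgtattcct
Sec14l1: atttTTTTATtgttacaatAATAAAtgtga
Gdf9: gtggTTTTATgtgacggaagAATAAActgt
Cnot7: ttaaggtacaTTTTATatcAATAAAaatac
These are at chr11:75628760-75628789, chr11:117159227-117159256 and chr11:53437862-53437891 on the plus strand, and at chr8:40493036-40493065 on the minus strand.

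The same stage comparison in the other mice shares no library with this one. In young oocytes 1032 of 7381 measured genes were higher (14.0%) and 1204 lower (16.3%), and with NMN 172 of 7057 were higher (2.44%) and 1991 lower (28.2%). Of the 1548 genes lower in untreated 12-month oocytes, 791 were lower in young oocytes too, which is 51.1% of the first list and 65.7% of the second, and 12 were higher in young oocytes. With NMN 1091 were shared, 70.5 and 54.8% of the lists. Of the 169 higher genes, 43 were higher in young oocytes, 25.4 and 4.17% of the lists, and 10 were higher with NMN, 5.92 and 5.81%. Counted the other way, 1 of the 169 was lower in young oocytes and 5 were lower with NMN. The NMN comparison has 3 MII and 3 GV oocytes, the other comparisons 3 and 2. Its no-overlap rule is therefore harder to meet, and the counts are not fully alike. Across the 12161 genes, which are not independent, Pearson's r of the log2 ratios was 0.58 with young and 0.60 with NMN oocytes.

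Medians of nuclear-encoded ribosomal and respiratory lists were below 0 in all 3 sets. The median log2 ratio of cytosolic ribosomal proteins was -3.33 in untreated 12-month, -3.84 in NMN and -3.48 in young oocytes, and that of complex I -3.17, -3.71 and -3.60. Complexes II to V were at -2.34, -3.13 and -2.75 and mitochondrial ribosomal proteins at -2.52, -3.40 and -2.10 in the same order. Mitochondrially encoded mRNAs were at 1.56, 3.10 and 0.92, with 4, 6 and 0 genes counted as higher. The MII libraries of both other sets were uneven. With NMN, mitochondrially encoded genes held 42.99, 33.24 and 6.18% of all counts, and 6444, 5679 and 7725 genes had counts. In young oocytes mitochondrially encoded genes held 24.39, 5.08 and 6.55%, and 9106, 12636 and 13477 genes had counts. The part of these libraries in the NMN and young values was not tested. Glycolysis was at -1.58 in untreated 12-month, -2.28 in NMN and 0.34 in young oocytes, and NAD synthesis with the sirtuins at -1.19, -2.64 and 0.93. Stored transcripts with a high ratio in young oocytes were among those that overlapped in 12-month oocytes. Gdf9 had a log2 ratio of 0.34 in untreated 12-month and 3.17 in young oocytes, where it was at 3683.9, 17417.1 and 4750.0 CPM in MII and at 1141.5 and 772.0 CPM in GV oocytes. Mos was at 0.36 and 3.13, Ccnb2 at 0.96 and 2.73, and Pabpn1l at -0.75 and 3.23. In GV 1 and the batch 2 GV oocyte at 12 months Mos was at 941.0 and 81.2 CPM, against 102.0 and 104.0 CPM in young GV oocytes. Ccnb2 was at 312.0 and 64.7 CPM against 114.0 and 86.7 CPM, and Pabpn1l at 1511.1 and 105.0 CPM against 127.0 and 76.0 CPM. The 12-month GV means of Mos, Ccnb2 and Pabpn1l thus rest largely on GV 1. These differences between conditions were not tested.

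**Figure D5:**
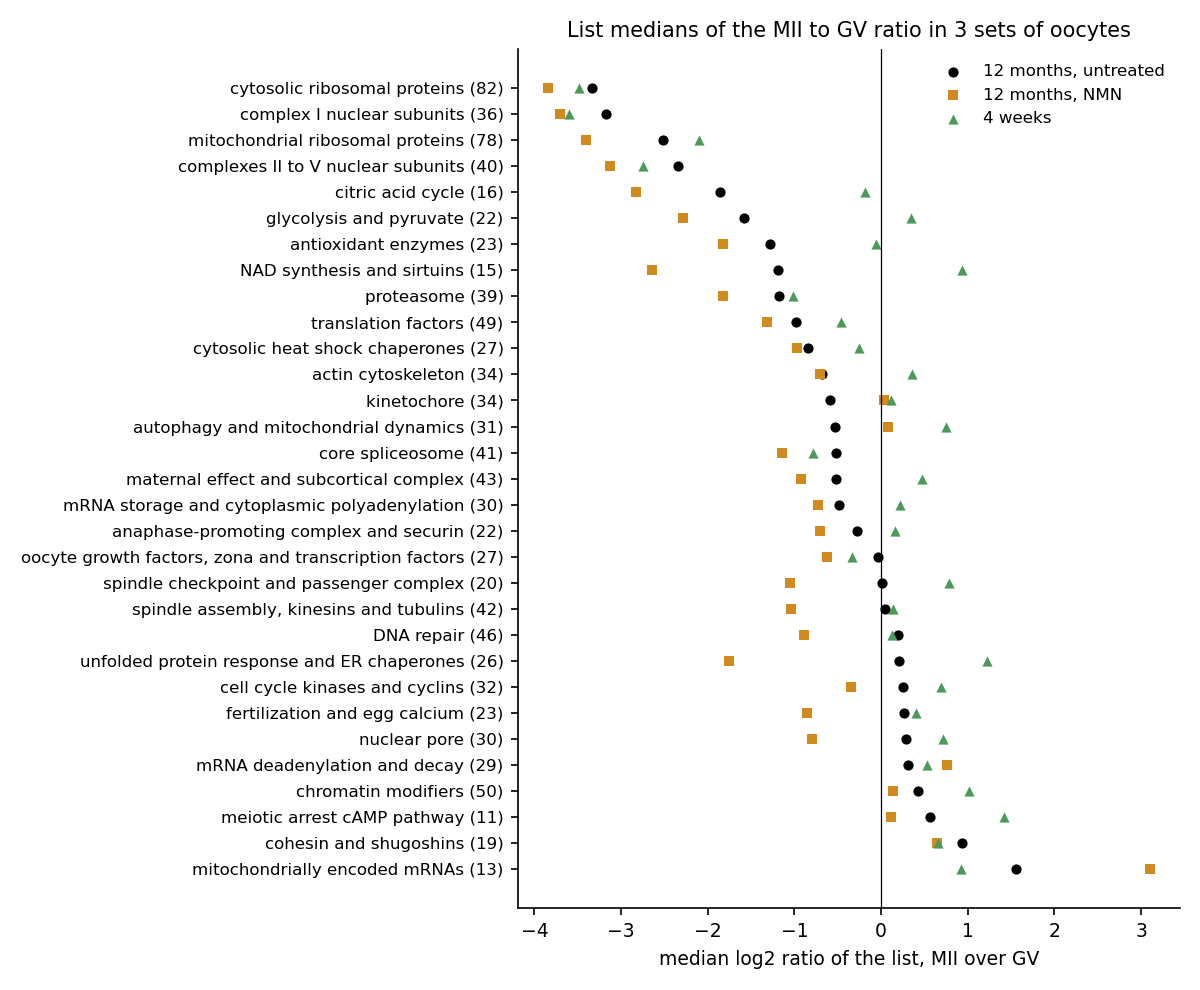
Median log2 ratio of MII over GV for the 31 gene lists with at least 8 measured genes, in untreated 12-month (black), NMN-treated 12-month (orange) and young (green) oocytes, with the number of genes kept in brackets. The lists of ribosomal proteins and nuclear respiratory subunits lie left of -2 in all 3 sets, and the young medians lie right of the untreated 12-month medians for most of the other lists.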

How the data were processed

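RNA of single oocytes was sequenced in 18 libraries, and 5 of them carry this account. Per the submitters' processing notes, the tools were Trim Galore 0.4.5, FastQC 0.11.8, TopHat2 2.1.1 and Cufflinks, whose order is not given, with the builds mm10 and GRCm38; which step made the tables is not given in the sources used here. Per the file headers, the deposited tables give an expected count per gene, not scaled, and a TPM value, which is corrected for effective length within each library by the authors. Expected counts were rounded to whole numbers. A pair of young GV libraries held identical values in every gene and was counted once, and 1 GV library under 100000 counts was left out, so scaling used 16 libraries. No more than 0.056% of the counts in a library lay in rows that have no gene symbol.

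The function filterByExpr of edgeR 4.0.16 (minimum count 10, by group) left 12161 genes, whose counts were put on the CPM scale by TMM in R 4.3.3. Folds are ratios of scaled means without the added 1 CPM. For a gene at 0 throughout a stage, 3 counts over that stage stand in, and the fold is written as at least that size. No test, p-value or standard error is given. The genes named were up to 12 per direction and 4 per list with the largest ratio among those counted, and 39 named in any case; names of predicted genes and of pseudogenes were left out, and genes shown for their 3′ ends or for an exception were chosen after their values were seen. The lists, 36 in all, and the genes were chosen with earlier results of these data known. Symbols, coordinates and transcripts came from GENCODE vM21 (GRCm38), with 1 transcript per gene. The code of the comparison was run on simulated counts, with planted changes far larger than 4-fold in genes well above 10 CPM. That run checks the code and does not measure how often genes are miscounted in these oocytes. Alternatives covered scaling (RLE of DESeq2 1.42.0, totals, TPM), filter, added CPM, threshold, batch and single oocytes left out. Python 3.11.15, pandas 2.3.3, numpy 2.4.6, scipy 1.17.1 and matplotlib 3.10.9 were used.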

Additional observations from a re-analysis of the deposited data

Results flagged for a closer look

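Of the named genes counted in untreated 12-month oocytes, 3 had every MII oocyte on the opposite side of every GV oocyte in young mice, and 1 had so with NMN. Snrpb, a core protein of the spliceosome, had a log2 ratio of MII over GV of -3.05 in untreated 12-month oocytes and 3.64 in young oocytes. It was at 0, 0 and 1.46 CPM in MII and at 15.3 and 7.38 CPM in GV oocytes at 12 months, and at 25.4, 8.10 and 0.828 CPM in MII and 0 CPM in both GV oocytes of young mice. Cdc16, a subunit of the anaphase-promoting complex, had a log2 ratio of -3.06 at 12 months and 1.78 in young oocytes. Cpsf4, a cleavage and polyadenylation factor, had a log2 ratio of -3.21 at 12 months and 1.41 in young oocytes. At 12 months it was at 1.23, 0 and 0.364 CPM in MII and at 24.4 and 1.97 CPM in GV oocytes. In young oocytes it was at 6.91, 2.34 and 2.9 CPM in MII and at 1.8 and 0 CPM in GV oocytes. Both young means were under the 10 CPM needed to count as measured. Cdc42ep3, an effector of CDC42, had one of 3.32 in untreated and -2.59 in NMN-treated 12-month oocytes, where no MII oocyte had a count. None of these differences between conditions was tested.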

How the results depend on the processing

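No paired analysis was possible because the oocytes of the stages share no animal label and no test was made. The count of lower genes, 1548, stayed within 1.5 times except at an 8-fold threshold (970) and with the GV library of 5009 counts kept (45); in that setting 494 genes were higher, the median of all genes was 0.10, and the medians of complexes II to V, mitochondrially encoded mRNAs and mitochondrial ribosomal proteins were -1.77, 2.14 and -2.03. The count of higher genes, 169, was less stable: 105 with RLE size factors, 266 with totals without mitochondrially encoded genes, 55 with 5 CPM added, 395 at 3-fold and 18 at 8-fold. Within titles that give no batch 393 were higher and 1729 lower, and within batch 2, with 1 oocyte per stage, 742 and 2115. The share of higher among counted genes was 9.84%, and 26.0% within batch 2. Under the scalings tried, the median of all genes lay between -0.42 (RLE) and -0.12 (TPM).

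Leaving out each oocyte in turn gave between 203 and 643 higher genes, the last without GV 1, when 151 of the 169 and 1234 of the 1548 were still counted; 314 were higher without the batch 2 GV oocyte and 263 without the batch 2 MII oocyte. The lower genes then numbered 1639 to 1707. With fewer oocytes the stages overlap less readily, so these counts and those within titled batches can rise by the rule alone. The median of all genes ranged from -0.44 to -0.03. Complexes II to V ranged from -2.55 to -1.77 and mitochondrial ribosomal proteins from -2.58 to -2.20. The mitochondrial ribosomal median was -2.83 with 0.25 CPM added, -2.11 with 5 CPM added and -3.06 in titles without a batch, and that of complexes II to V was -1.28 in batch 2. Several list medians close to 0 differed in sign between titles without a batch and batch 2. Among them were the cell cycle (0.02 and -0.11) and spindle lists (0.66 and -0.47). The unfolded protein response (0.05 and -0.73) and chromatin modifiers (0.84 and -0.04) did so too. The list of NAD synthesis and sirtuins had a median of -1.19, which ranged from -2.04 to 0.40 and changed sign without GV 1. Over all alternatives, 516 of 595 list medians and 2377 of 2618 ratios of named genes moved by less than 1 SD. The SD was that of the values over the 6 pairs of oocytes. It is wide for some lists, at 0.863 for NAD synthesis and sirtuins, and leaving out the filter left several medians unchanged. The tally is therefore no measure of stability. The cause of the moved values was not tested. At these depths 3 counts amounted to 0.574 to 1.055 CPM, so a gene under about 1 CPM in a library rests on few counts.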
